A study of Mus musculus with 2 samples.

Results

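AP-1 factors are dimers of basic leucine zipper proteins that bind DNA, and 10 genes for such proteins were followed here through nucleoplasmic RNA of mouse macrophages. They were the Fos family genes Fos, Fosb and Fosl2, the Jun family genes Jun, Junb and Jund, and the genes Atf3, Batf, Batf3 and Maff. Their identifiers in the tables are ENSMUSG00000021250.13 (Fos), ENSMUSG00000003545.3 (Fosb), ENSMUSG00000029135.10 (Fosl2), ENSMUSG00000052684.4 (Jun), ENSMUSG00000052837.6 (Junb), ENSMUSG00000071076.6 (Jund), ENSMUSG00000026628.13 (Atf3), ENSMUSG00000034266.6 (Batf), ENSMUSG00000026630.9 (Batf3) and ENSMUSG00000042622.14 (Maff). All 10 were found by symbol among 55536 annotated genes, 22028 of them protein-coding, and they have 32 annotated transcripts. The RNA was depleted of ribosomal RNA and came from bone marrow-derived macrophages, grown from marrow precursors, of C57BL/6J mice. Per the labels, these cells received 100 ng/ml of Lipid A, the endotoxin moiety that activates Toll-like receptor 4, for 12 h. Lipid A was then withdrawn for 12 h, and collection was at the 0 min point of a second dose of 100 ng/ml. The 1 group has 2 libraries, biological replicates 1 and 2, made from 1 µg and 500 ng of RNA, and no untreated group was analysed here. The labels give both libraries 1 donor entry and record neither sex nor age, so whether they came from separate mice or cultures is not stated. Levels, transcript makeup and the difference between the libraries are therefore described without a test.

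Fos proteins dimerise only with partners such as the Jun proteins, whereas Jun proteins also pair with one another. The dimers bind the TPA response element (TRE) and, with ATF partners, the cyclic AMP response element (CRE). Toll-like receptor 4 signals through MAP kinases, which both induce several of these genes within minutes, as immediate early genes, and phosphorylate their products. In macrophages AP-1 factors bind enhancers together with the lineage factor PU.1 and take part in cytokine gene induction.

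The gene-level tables assigned 22907877 expected counts to annotated genes in replicate 1 and 18612405 in replicate 2. TPM, a level per unit of transcript length scaled to a fixed total, was 27.5% and 29.6% protein-coding, the remainder belonging to other RNA classes. The nuclear RNA Malat1 stood at 19257 and 26338 TPM. All 8 macrophage markers listed were above 10 TPM in both libraries, among them Lyz2, the highest, at 1368 and 1126 TPM and Spi1, the lowest, at 50.2 and 43.5 TPM. None of 6 dendritic cell, 5 B cell or 5 neutrophil markers reached 1 TPM in both libraries. Of 5 T cell markers, Cd28 had 30.5 and 32.4 TPM, while Cd3e and Lck were at 0 counts in both. Cd3d had 0 and 4 counts, and Cd3g had 1 and 0. A second deposited quantification of the same libraries gave Cd3d 1.76 and 4.20 TPM. It gave Lck 0.118 and 0.495 TPM, with Cd3e and Cd3g also below 1 TPM. In bulk RNA, fewer cells of a type and less RNA per cell cannot be told apart.

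Of the 10 genes, 8 reached 1 TPM in replicates 1 and 2 alike, against 44.4% of all protein-coding genes, and 5 reached 10 TPM, against 19.7%. Those 5 were Atf3, Junb, Jun, Jund and Batf. The second quantification had 7 of the 10 at 1 TPM, against 45.5% of protein-coding genes. It had 2 at 10 TPM, Atf3 and Junb, against 14.1%. In the gene-level tables Fosl2 passed 1 TPM in replicate 2 alone, and Fosb stayed below it in both libraries. The median of log2(TPM + 0.1) over the 10 genes was 3.09 ± 0.60, against -0.91 ± 0.05 over all protein-coding genes (SD, n = 2). Summed over the 10 genes, replicate 1 had 178 TPM and replicate 2 had 108 TPM, against 74.6 and 67.8 TPM in the second quantification. The span from the highest to the lowest gene ran from 36.1 ± 14.1 TPM for Atf3 to 0.20 ± 0.028 TPM for Fosb (SD, n = 2).

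**Figure D1:**
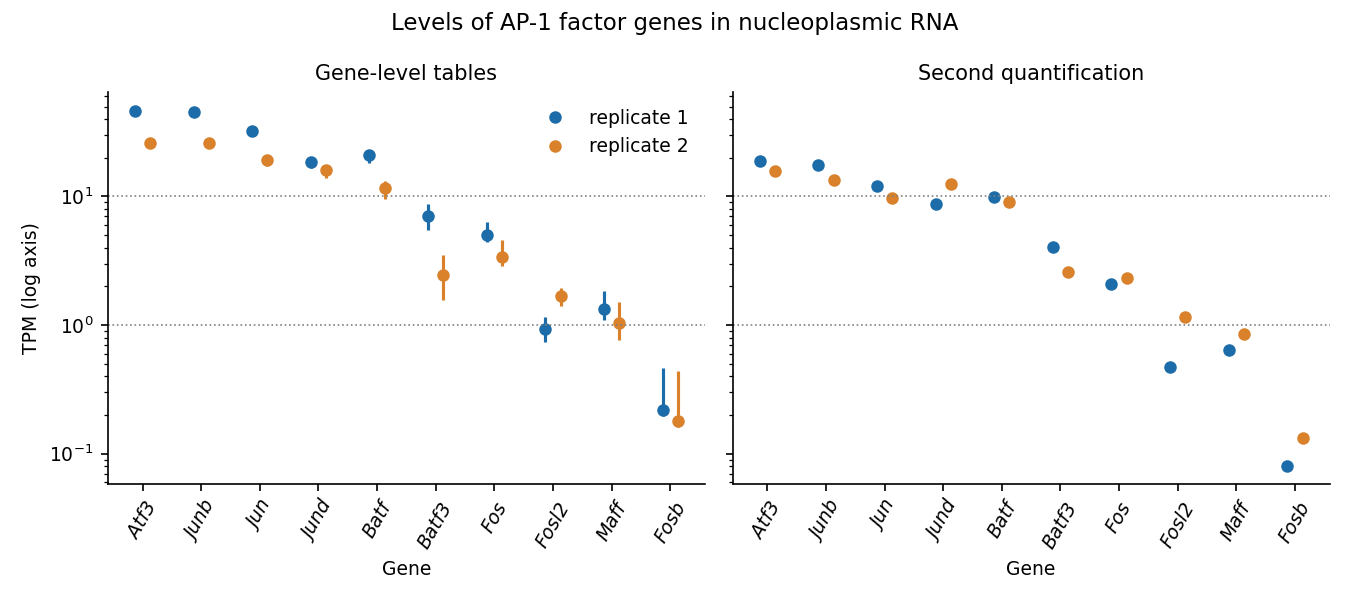
TPM on a log axis of the 10 AP-1 factor genes, ordered by mean level, in the gene-level tables (left, with the deposited TPM intervals as bars) and in the second deposited quantification (right). Blue points are replicate 1 and orange points replicate 2, and dotted lines mark 1 and 10 TPM; on the left, 9 genes lie higher in replicate 1 and Fosl2 in replicate 2, and on the right 5 genes lie higher in replicate 1 and 5 (Fos, Fosb, Fosl2, Jund and Maff) in replicate 2.

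In the plot of TPM by gene, the gene-level tables put 5 genes above 10 TPM, then Batf3 and Fos, and Fosl2, Maff and Fosb lowest. Library ranges of Atf3, Junb and Jun each met the next one's, as did those of Jund and Batf, of Batf3 and Fos, and of Fosl2 and Maff. Such ranges pool the 2 libraries and ignore that the genes were measured together in each. They therefore do not settle whether these neighbours differ. Ranges did not meet between Jun and Jund, between Batf and Batf3, between Fos and Fosl2, or between Maff and Fosb. In the second quantification the Jun range (9.79 to 12.1 TPM) lay inside that of Jund (8.71 to 12.6 TPM), Junb and Jun did not meet, and neither did Batf3 and Fos. Within each single library of the gene-level tables the deposited TPM intervals of Atf3 and Junb met, and Jun lay below both without meeting them.

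The Jun genes encode the obligate core of most AP-1 dimers, and together they held 55.5 ± 1.95% of the TPM of the 10 genes (SD, n = 2). Junb, which encodes a Jun protein often opposed to Jun in growth control, had 45.3 TPM (2070 counts) in replicate 1 and 26.2 TPM (1024 counts) in replicate 2. Its mean was 35.7 ± 13.5 TPM (SD, n = 2), and it ranked 984 and 1829 among protein-coding genes. Jun, the founding member and a target of Jun N-terminal kinase, had 32.5 TPM (2787 counts) and 19.1 TPM (1392 counts), a mean of 25.8 ± 9.48 TPM (SD, n = 2). Both genes were higher in replicate 1. Jund, the Jun gene usually described as constitutive, had 18.5 TPM (768 counts) and 16.0 TPM (569 counts), a mean of 17.2 ± 1.75 TPM (SD, n = 2). In the second quantification Jund had the higher TPM in replicate 2, with 8.71 and 12.6 TPM. All 3 Jun genes are intronless in their coding transcript, so no splicing readout exists for them, and Jun-201 and Jund-201 are the single annotated transcripts of their genes. Jun lies at chr4:95049034-95052222 (minus strand), Junb at chr8:84974484-84978718 (minus strand) and Jund at chr8:70698949-70700616 (plus strand), in GRCm38 coordinates.

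The promoter windows of Jun and Junb are printed because they differ in the CRE-like letters they hold. RefSeq windows on GRCm38.p6 run from 250 bases before to 50 bases after a start site. Capitals mark matches on either strand to TGACATCA, TGACGTCA, TGACG (the CRE half-site), TGANTCA (the TRE), TATAAA, the κB site and the CArG box. A match is a description of letters and not a site of binding.
Jun promoter, chr4:95052173-95052472, minus strand: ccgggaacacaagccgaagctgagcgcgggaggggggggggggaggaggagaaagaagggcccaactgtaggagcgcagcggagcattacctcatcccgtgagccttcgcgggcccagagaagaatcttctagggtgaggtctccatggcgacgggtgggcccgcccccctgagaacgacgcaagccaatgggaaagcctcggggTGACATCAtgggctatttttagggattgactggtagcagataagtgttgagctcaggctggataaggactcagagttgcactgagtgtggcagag
Junb promoter, chr8:84978699-84978998, minus strand: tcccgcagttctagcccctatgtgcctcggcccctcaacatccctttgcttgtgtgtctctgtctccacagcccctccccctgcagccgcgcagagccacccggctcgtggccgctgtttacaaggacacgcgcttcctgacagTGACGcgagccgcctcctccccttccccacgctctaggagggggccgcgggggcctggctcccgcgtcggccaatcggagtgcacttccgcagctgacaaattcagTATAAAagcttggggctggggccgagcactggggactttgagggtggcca

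In the Jun window the capitals are TGACATCA, a CRE variant known as a binding sequence of Jun and ATF2 dimers in this promoter. Its first base is 45 bases before the start site. The Junb window holds TGACG at 106 bases and TATAAA at the RefSeq start site itself, which lies 30 bases upstream of the GENCODE start of Junb-201.

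Genes on the opposite strand overlap 4 of the 10 genes, all 3 Jun genes among them, and the use of strand in counting is not given in the sources used here. Junos, antisense to Jun over 689 bases, had 38 and 24 counts. Gm11175, antisense to Jund over 919 bases, had 0 and 2 counts. Prdx2 meets the Junb gene by 351 bases and had 649 and 470 counts, but the overlap lies in the minor transcript Junb-202, which had 0 counts in both gene-level libraries. Gm24748, a small RNA gene opposite to Atf3, had 0 counts in both. Junb-201 held 100% of Junb TPM in both gene-level libraries, and 96.4% and 100% in the second quantification.

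Fos family genes stood far lower, with 4.17 ± 0.98% of the summed TPM of the 10 genes (SD, n = 2). The ratio of summed Jun family TPM to summed Fos family TPM was 15.6 in replicate 1 and 11.7 in replicate 2, and 14.5 and 9.93 in the second quantification. Fos, the serum- and MAP kinase-responsive immediate early gene, had 5.03 TPM (239 counts) and 3.36 TPM (122 counts). Its mean was 4.20 ± 1.18 TPM (SD, n = 2), and it ranked 6888 and 7905 among protein-coding genes. Fosl2, which encodes Fra-2, had 0.93 TPM (124 counts) and 1.69 TPM (204 counts), a mean of 1.31 ± 0.54 TPM (SD, n = 2). In the gene-level tables it was the single one of the 10 genes with the higher level in replicate 2. In the second quantification, Fos (2.09 and 2.33 TPM), Fosb (0.080 and 0.132 TPM), Jund and Maff were also higher in replicate 2. Fosb had 0.22 TPM (22 counts) and 0.18 TPM (15 counts) and was last in both libraries and both quantifications. Fos lies at chr12:85473890-85477273 (plus strand), Fosl2 at chr5:32135801-32157842 (plus strand) and Fosb at chr7:19302696-19310051 (minus strand).

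The Fos window is printed as the window of this set with both a TATA match and 2 CRE half-sites at the annotated start.
Fos promoter, chr12:85473640-85473939, plus strand: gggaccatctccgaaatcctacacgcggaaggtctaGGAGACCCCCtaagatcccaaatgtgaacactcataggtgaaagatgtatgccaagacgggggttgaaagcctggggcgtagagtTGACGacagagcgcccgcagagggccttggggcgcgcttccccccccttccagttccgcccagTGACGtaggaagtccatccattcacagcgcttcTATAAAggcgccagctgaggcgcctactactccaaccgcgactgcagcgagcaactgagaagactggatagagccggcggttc

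TGACG begins 129 and 66 bases before the start site, TATAAA begins 33 bases before it, and a κB match begins 214 bases before it. The half-site nearer the start is the CRE long described in this promoter.

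Atf3, Batf and Batf3 encode small bZIP proteins that act as partners of Jun proteins, and they held 39.5 ± 3.07% of the summed TPM (SD, n = 2). Atf3, a stress-induced gene whose product restrains Toll-like receptor responses in macrophages, had 46.0 TPM (2338 counts) and 26.2 TPM (1134 counts). Its mean was 36.1 ± 14.1 TPM (SD, n = 2), and it ranked 964 and 1835 among protein-coding genes. Batf, whose product pairs with Jun proteins and IRF4 or IRF8, had 21 TPM (357 counts) and 11.6 TPM (177 counts), a mean of 16.3 ± 6.65 TPM (SD, n = 2). Both Atf3 and Batf were higher in replicate 1. Batf3, known for its need in cross-presenting dendritic cells, had 6.99 TPM (84 counts) and 2.43 TPM (29 counts), a mean of 4.71 ± 3.22 TPM (SD, n = 2). Beside it, the 6 dendritic cell markers had summed levels of 2.05 and 1.90 TPM in replicates 1 and 2, with Cd209a at 0 counts in both.

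Batf3 and Atf3 are neighbours on chromosome 1, at chr1:191097847-191108945 (plus strand) and chr1:191170296-191218039 (minus strand). They are 61.4 kb apart with 1 protein-coding gene, Fam71a, between them. Batf, at chr12:85686669-85709087 (plus strand), lies 209 kb from Fos, with the AP-1 repressor gene Jdp2 between them at 3.79 and 3.34 TPM. The Atf3 window is printed since this gene had the highest mean level, and its CRE half-site reads CGTCA on the printed strand, 7 bases before the start site.
Atf3 promoter, chr1:191183284-191183583, minus strand: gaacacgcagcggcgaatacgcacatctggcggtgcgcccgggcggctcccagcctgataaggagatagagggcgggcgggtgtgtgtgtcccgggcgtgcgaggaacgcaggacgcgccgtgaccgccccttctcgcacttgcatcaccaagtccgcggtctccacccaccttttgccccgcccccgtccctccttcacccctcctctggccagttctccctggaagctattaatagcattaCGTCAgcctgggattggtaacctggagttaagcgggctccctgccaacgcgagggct

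Maff encodes a small Maf protein, which has no activation domain and pairs with CNC or other small Maf proteins. It had 1.33 TPM (65 counts) in replicate 1 and 1.03 TPM (39 counts) in replicate 2, a mean of 1.18 ± 0.21 TPM (SD, n = 2). The second quantification gave Maff 0.643 and 0.852 TPM. The gene lies at chr15:79346621-79359076 (plus strand) and has 3 RefSeq start sites. The window printed is the second, because it holds the single full CRE, TGACGTCA, found in the set; this palindrome contains TGACG on both strands and begins 29 bases before the start site.
Maff promoter, chr15:79347270-79347569, plus strand: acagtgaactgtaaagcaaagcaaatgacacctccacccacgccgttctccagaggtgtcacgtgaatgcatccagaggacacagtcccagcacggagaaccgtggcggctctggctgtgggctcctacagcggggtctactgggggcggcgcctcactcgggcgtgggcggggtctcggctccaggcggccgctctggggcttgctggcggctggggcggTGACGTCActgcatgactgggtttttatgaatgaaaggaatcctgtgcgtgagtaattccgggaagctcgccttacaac

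Across the 12 windows of the 10 genes, TGACG occurred in 7 windows, of 6 genes (Fos, Fosb, Junb, Atf3, Batf and Maff). Of 32817 RefSeq windows of the same 300-base length, 20.8% hold it. TGACGTCA was in Maff alone (1.79% of windows), and TGACATCA was in Jun and the third Maff window (3.62%). The κB site was matched in Fos, Fosb, Fosl2 and the third Maff window (8.46%). TATAAA occurred in Fos and Junb (13.6%), and CCAAT in Jun, Junb and Atf3 (37.4%). TGANTCA (7.81%) and the CArG box (1.63%) were matched in 0 of the 12 windows, which says only that these letters are not in them. Motifs were chosen after the sequences were seen. GC content of the 12 windows ran from 46.7% (Jund) to 75.7% (Batf3), against a median of 52.7% over all windows. The shares over all windows were not matched for it. The Jund RefSeq start lies 1210 bases upstream of the GENCODE start, and that of Fosl2 lies 671 bases downstream of the start of Fosl2-201. Neither window covers the leading transcript's own start, and the κB match of Fosl2 lies within the transcribed gene.

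**Figure D2:**
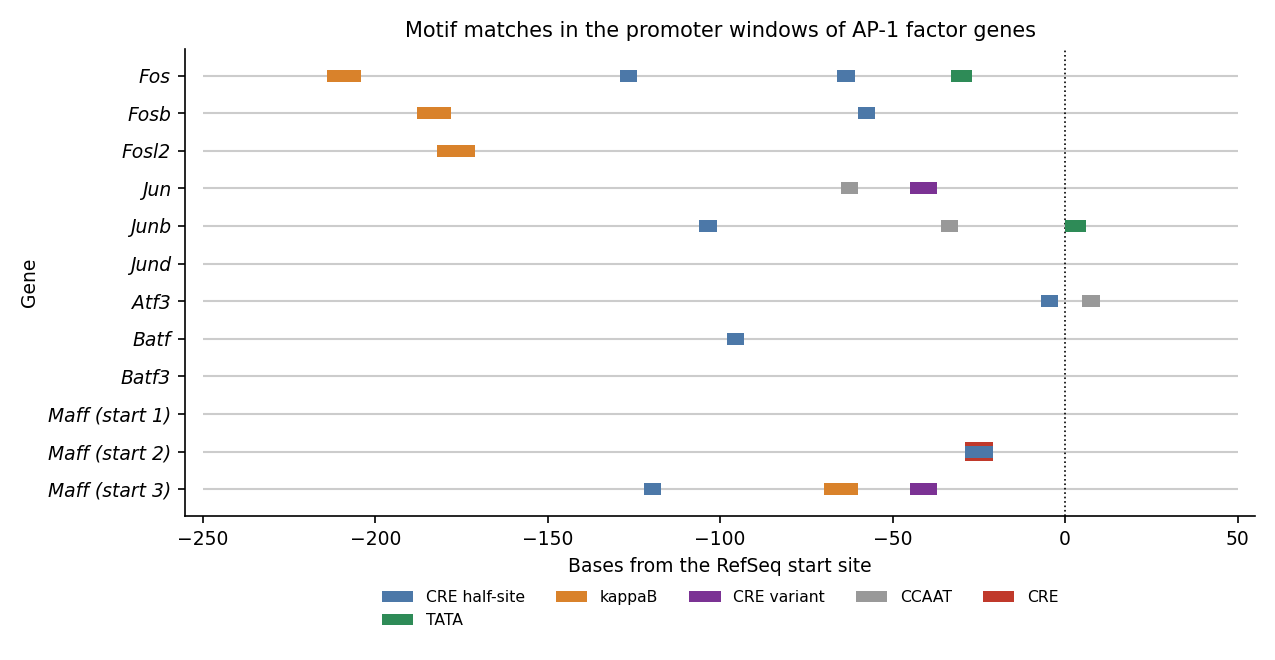
Positions of motif matches in the 12 RefSeq promoter windows of the AP-1 factor genes, in bases from the RefSeq start site (dotted line). Each grey line is 1 window of 300 bases and each coloured box 1 match on either strand; the windows of Jund, of Batf3 and of the first Maff start carry none.

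The map of promoter matches shows the CRE-like letters within the last 129 bases before the start sites, where they were found at all.

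Transcript makeup separated the intron-containing genes. Atf3-201, the full-length coding transcript, held 100% and 99.8% of Atf3 TPM in replicates 1 and 2, and 100% and 92.4% in the second quantification. Batf-201 held 68.1% and 72.3%, and the rest was Batf-202, an annotated retained intron, at 31.9% and 27.7% (37.0% and 30.4% in the second quantification). For scale, the median retained-intron share over 6143 expressed protein-coding genes that have such a transcript was 29.2% and 30.7%, and 34.5% and 35.5% in the second quantification. Batf was thus near that median in both libraries.

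Fosl2 had a larger part in retained introns. Fosl2-202 and Fosl2-203 together held 43.5% and 42.0% of its TPM, and 60.5% and 60.7% in the second quantification, so the coding transcript Fosl2-201 was the minor part there. Values lay above the median of the 6143 expressed genes in all 4 cases. Fosl2 itself is not in that set, which required 1 TPM in both libraries, since it had 0.93 TPM in replicate 1. Its gene-level shares rest on few expected counts: 20.6 and 47.9 for Fosl2-202, and 7.87 and 3.96 for Fosl2-203. In nuclear RNA, reads of unspliced precursor and of a stable retained-intron transcript cannot be told apart by these shares. The coding transcript Fos-201 held 82.5% and 68.8% of Fos TPM, and the processed transcript Fos-203 held 11.9% and 31.3%, on only 9.78 and 14.95 expected counts. The second quantification gave Fos-201 72.7% and 60.5%, also lower in replicate 2.

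The makeup of the remaining genes differed between libraries or between quantifications. The coding transcript Batf3-201 held 26.0% of Batf3 TPM in replicate 1 and 63.0% in replicate 2, but 15.4% and 11.9% in the second quantification. The processed transcript Batf3-205 held 51.2% and 37.0%, and 37.5% and 37.2% in the second quantification. The retained intron Batf3-202 held 17.9% and 0%, and 18.7% and 33.4% in the second quantification. The processed transcript Batf3-203 held 4.86% and 0%, and 27.4% and 17.5% in the second quantification. All Maff TPM was in coding transcripts, which start at different positions. Maff-203, from the first start site, held 50.7% and 90.3% in the gene-level set but 0% and 0% in the second quantification, where Maff-201, from the second start site, held 85.5% and 43.1%. Which Maff start was used can therefore not be read from these tables. For Fosb, named after its values were seen, the leading transcript was Fosb-205 in replicate 1 and Fosb-207 in replicate 2, on 22 and 15 counts in all.

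**Figure D3:**
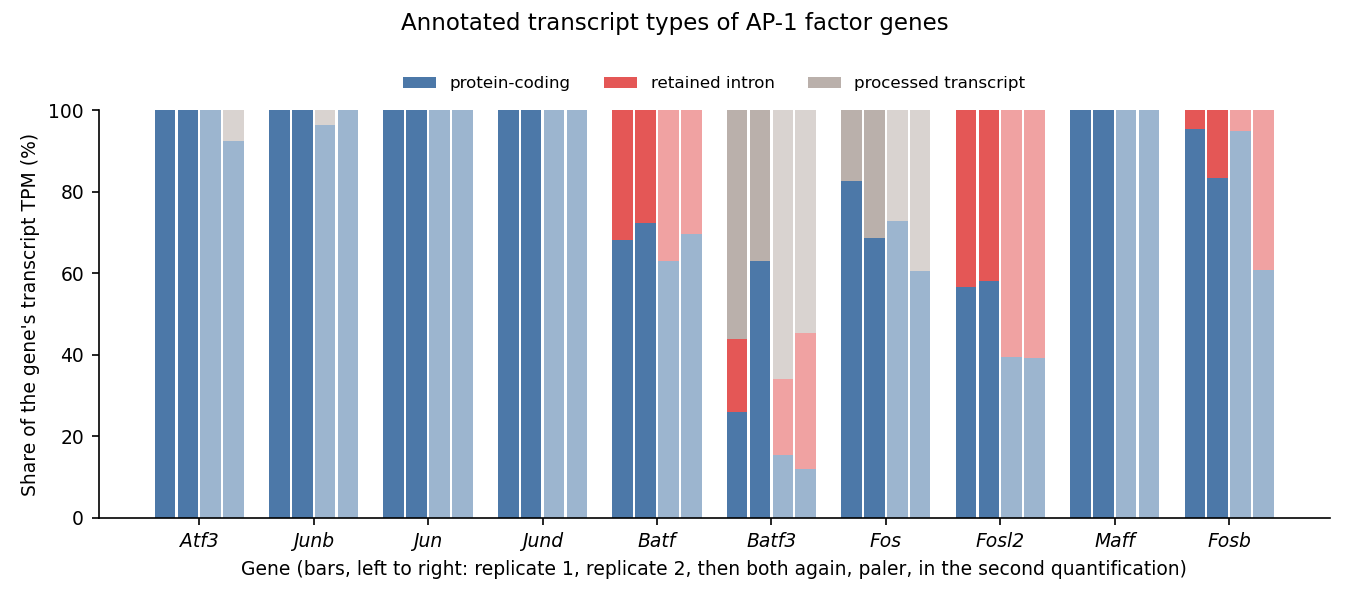
Share of each AP-1 factor gene's transcript TPM, in percent, held by annotated protein-coding, retained-intron and processed transcripts. The 4 bars per gene are replicate 1 and replicate 2 in the gene-level set of tables, then replicate 1 and replicate 2, paler, in the second quantification; Jun, Jund and Maff are wholly coding in all 4, and Fosl2 is 42.0% to 60.7% retained intron.

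The stacked bars show Batf and Fosl2 with like shares in both libraries, whereas the Batf3 bars disagree between libraries and between quantifications.

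The 3′ UTRs of these genes were examined for the AU-rich pentamer ATTTA, the core of elements through which proteins such as tristetraprolin (Zfp36) hasten decay of Fos mRNA and other short-lived mRNAs. At least 1 pentamer was present in 8 of the 10 genes, against 67.4% of 9542 expressed protein-coding genes. The genes without one were Batf and Batf3, which have short UTRs of 335 and 310 bases. Density was highest in Fos at 4.91 per kb and Junb at 4.12 per kb, followed by Maff at 3.29, Jun at 3.24 and Atf3 at 2.53 per kb. Jund had 1.88, Fosl2 1.72 and Fosb 0.468 per kb. The median over the 10 genes was 2.20 per kb and that over all expressed genes 1.32 per kb. The nonamer TTATTTATT, which contains the pentamer, was in Fos, Fosl2 and Maff, against 7.44% of expressed genes. Stretches of 30 bases from the leading GENCODE transcript are printed for 4 genes as examples of clustered pentamers, in capitals.
Fos 3′ UTR, chr12:85477100-85477129, plus strand: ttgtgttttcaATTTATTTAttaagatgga
Fosl2 3′ UTR, chr5:32156864-32156893, plus strand: aattgacATTTAttttattATTTAttttaa
Jun 3′ UTR, chr4:95049207-95049236, minus strand: atcATTTAtaatcataggaaagATTTAgta
Maff 3′ UTR, chr15:79358894-79358923, plus strand: aaatcacATTTAatcttatATTTAgggaga

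In the Fos stretch the 2 pentamers overlap by their shared A, and the second, with TT on either side, forms the nonamer. These stretches describe sequence; decay was not measured here.

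Most AP-1 factor genes had more counts, after scaling, in replicate 1 than in replicate 2. Of the 10 genes, 9 had a log2 ratio of replicate 1 over replicate 2 above 0, against 49.7% of the 14892 genes past the count filter. For 7 of them the exact 95% counting interval lay above 0, against 23.7% of these genes, and for Fosl2 it lay below, against 23.3%. Ratios were 0.79 for Atf3 (0.69 to 0.89) and 0.76 for Junb (0.65 to 0.87). Batf had 0.75 (0.49 to 1.02) and Jun also 0.75 (0.65 to 0.84). Of the 10198 genes averaging 100 counts or more, 2.59% had a ratio at or above that of Atf3 and 3.15% one at or above that of Jun. Fos followed at 0.71 (0.39 to 1.04). Fosl2 went the other way at -0.97 (-1.31 to -0.64), and 0.922% of these genes had a ratio at or below it. Intervals cover counting error only, and with 1 library on each side no p-value can be given.

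None of the 7 AP-1 factor genes averaging 100 counts or more differed by 2-fold or more, against 2.01% of the 10198 genes. Batf3 had a ratio of 1.26 (0.65 to 1.94) but a mean count of 56.5. Scaled by library totals alone, Fosl2 came to -1.02 and passed that line. Ratios of Maff (0.47, -0.11 to 1.09) and Fosb (0.28, -0.72 to 1.35) were not distinguishable from 0 at this depth. Jund had 0.18 (0.02 to 0.34), and in the second quantification -0.09 (-0.21 to 0.03). That quantification also put Fosb at -0.23, so 7 of the 10 genes had a scaled count ratio above 0 there, against 50.4% of the 23570 genes past its filter. For 6 of them the counting interval lay above 0, against 23.6%, and for Fosl2 it lay below, against 23.2%. It kept Atf3 at 0.79, Junb at 0.78 and Jun at 0.76, and put Batf at 0.48 and Fos at 0.44.

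**Figure D4:**
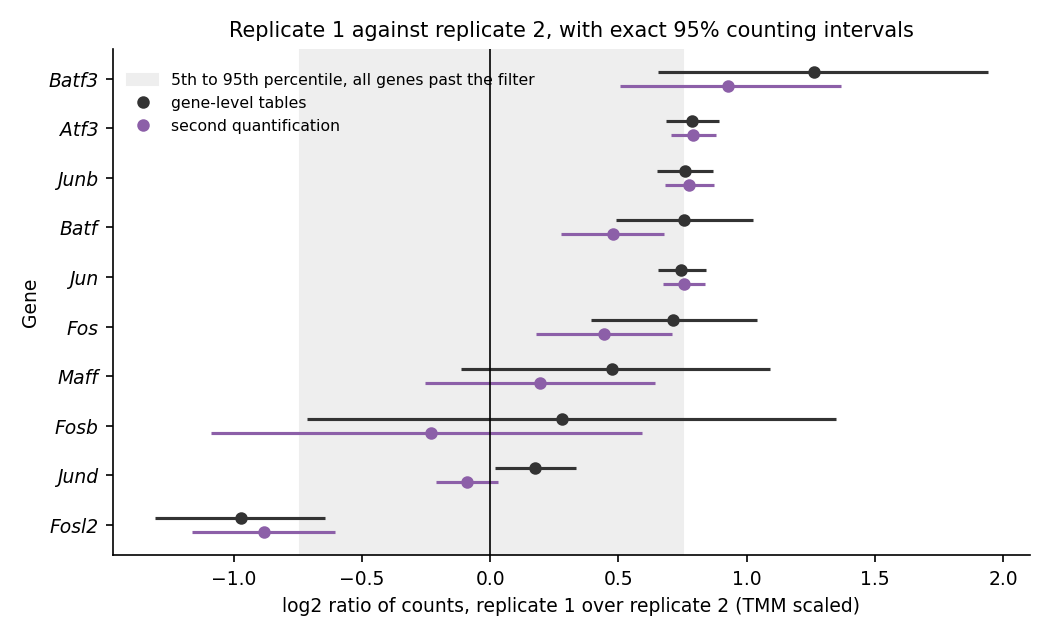
Log2 ratio of TMM-scaled counts, replicate 1 over replicate 2, for the 10 AP-1 factor genes, with exact 95% counting intervals as bars. Black points are the gene-level tables and purple points the second quantification. The grey band spans the 5th to 95th percentile of all 14892 genes past the filter in the gene-level tables, -0.74 to 0.75. No band was computed for the second quantification. Black and purple points of Atf3, Junb and Jun sit at the upper edge of this gene-level band, and those of Fosl2 lie below it.

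The plot of ratios sets these differences against the spread of all genes, whose biological coefficient of variation was 0.186. Other measures moved with them. Each of the 8 macrophage markers also had its higher count in replicate 1 after scaling, against 49.7% of all genes past the filter. The median log2 ratio of the markers was 0.41, and Fcgr1, named after its value was seen, had 1.04. Starting RNA was 1 µg in replicate 1 and 500 ng in replicate 2. Their part in the differences was not tested.

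The kinases that act on AP-1 were mostly expressed. Of 18 MAP kinase and upstream kinase genes, 15 reached 1 TPM in replicates 1 and 2, against 44.4% of all protein-coding genes. The median log2 ratio of the 17 past the filter was -0.10. Map3k8, which encodes the kinase TPL2 that links Toll-like receptors to ERK, led at 62.5 and 48.8 TPM. Mapk14, encoding p38α, had 31.9 and 33.4 TPM, and Map3k1 had 33.9 and 27.7 TPM. The Jun N-terminal kinase gene Mapk10 was lowest at 0.02 and 0.06 TPM. The other genes for this kinase, named after their values were seen, were Mapk9 at 22.85 and 26.3 TPM and Mapk8 at 7.84 and 10.3 TPM.

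Genes that control Fos and Jun transcription or stability were all expressed, with 12 of 12 past 1 TPM, against 44.4% of all protein-coding genes. Zfp36, which encodes the pentamer-binding tristetraprolin, led at 53.1 and 39.2 TPM, followed by Mef2a at 42.4 and 46.8 TPM. Zfp36l2 had 37.0 and 27.9 TPM. Srf, the factor that binds the CArG box, was lowest at 4.88 and 4.09 TPM. Their median log2 ratio between libraries was -0.07.

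Among 9 other AP-1 and Maf family genes, 8 reached 1 TPM in both libraries, against 44.4% of all protein-coding genes. Maf had 129 and 128 TPM, Atf7 had 30.8 and 43.4 TPM, and the small Maf gene Mafg had 27.1 and 29.8 TPM. Fosl1, which encodes Fra-1, was lowest with 1 count in replicate 1 and 0 in replicate 2. Thus Mafg, a close relative of Maff, stood at 28.5 ± 1.94 TPM, against 1.18 ± 0.21 TPM for Maff (SD, n = 2). Of 15 CREB, C/EBP and CNC genes, 13 reached 1 TPM, against the same 44.4%. Nfe2l1 had 74.96 and 73.6, Atf4 68.1 and 61.9 and Nfe2l2 62.4 and 65.6 TPM. Bach2 was lowest at 0.28 and 0.31 TPM. Of the 2 BATF partner genes, Irf8 had 54.0 and 33.1 TPM and Irf4 had 0.21 and 0.34 TPM.

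Other immediate early genes gave a mixed picture beside Fos and Fosb. Of 13, 8 reached 1 TPM in both libraries, against 44.4% of all protein-coding genes. Klf6 had 89.1 and 76.6, Ier5 23.1 and 16.7 and Ier3 20.9 and 15.4 TPM. Egr3 was lowest at 0.21 and 0.23 TPM. In 10 of the 13 the ratio of replicate 1 over replicate 2 was above 0, against 49.7% of all genes past the filter, with a median of 0.42. Egr1, named after its value was seen, had 271 counts in replicate 1 and 57 in replicate 2, a log2 ratio of 1.98.

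Of 16 genes known as AP-1 targets, 13 reached 1 TPM in both libraries, against 44.4% of all protein-coding genes. Spp1, encoding osteopontin, had 205 and 230 TPM, Tnf had 74.6 and 87.5 TPM, and the chemokine gene Ccl2 had 69.8 and 54.3 TPM. The gelatinase gene Mmp9 was lowest at 0.11 and 0.15 TPM. The median log2 ratio of the 14 past the filter was -0.21. Of these 14, 6 were higher in replicate 1, against 49.7% of all genes past the filter. The collagenase gene Mmp13, named after its value was seen, was the single one apart, with 256 counts in replicate 1 and 101 in replicate 2.

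**Figure D5:**
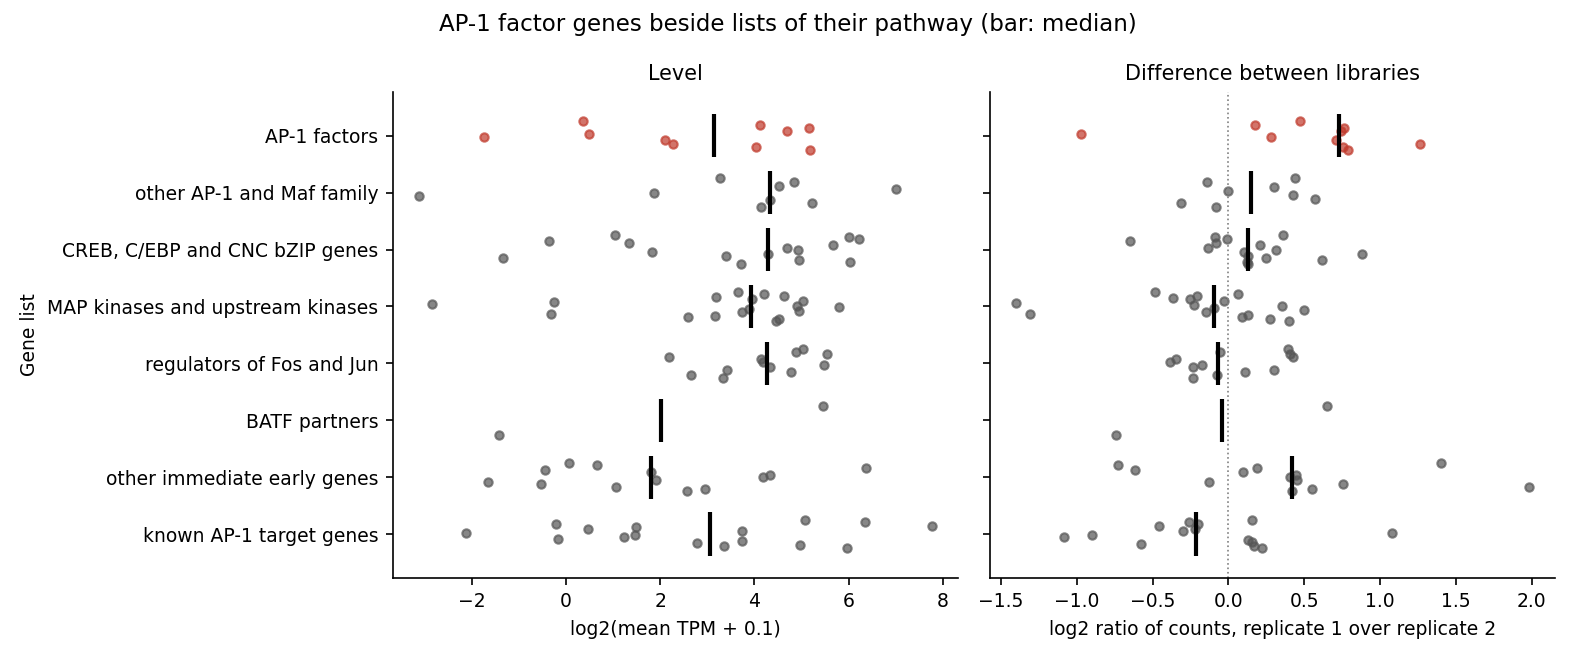
AP-1 factor genes (red) beside 7 lists of related genes (grey): on the left log2(mean TPM + 0.1) per gene, on the right the log2 ratio of counts, replicate 1 over replicate 2, of genes past the filter. Black bars are medians; the AP-1 factor genes have a median ratio of 0.73, other immediate early genes 0.42 and known AP-1 target genes -0.21.

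The plot of gene lists shows how the 10 genes spread over a wide range of levels, as the other lists do. Set beside each other, medians of log2(TPM + 0.1) were 3.09 for the AP-1 factor genes, 4.38 for other AP-1 and Maf genes, 4.27 for regulators of Fos and Jun and 1.76 for other immediate early genes. These are descriptions of the lists, and no test was made between them.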

How the data were processed

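The 2 libraries of 1 group were analysed from tables the authors deposited. Gene-level and transcript-level tables hold expected counts, TPM, deposited TPM interval bounds (here a score with no stated level) and, per the file headers, the percent of a gene held by each transcript. A second deposited transcript table holds estimated counts and TPM, summed here per gene. Per the deposited notes, the assembly is mm10 and the annotation GENCODE M21; the sources used here do not give the quantification programs or strand use. Every annotated gene matched GENCODE; 26345 further entries, with 1.01% and 0.336% of expected counts, name no annotated gene and were left out. The second quantification lacks 86 genes, and its estimated counts totalled 30676662 and 32351597.

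Expected counts were rounded to whole numbers and scaled by TMM (edgeR 4.0.16, R 4.3.3) over the 14892 genes past filterByExpr. Log2 ratios used a prior count of 0.5. Genes whose log2 ratio was 1 or more in size, with counts averaging 100 or more, are called apart. Ratio intervals are exact (Clopper-Pearson) 95% intervals and, reads lacking molecular identifiers in these files, cover counting error only. The coefficient of biological variation comes from edgeR's common dispersion, as its square root. DESeq2 1.42.0 size factors, library totals, a pseudocount of 1, other count minimums, TPM over protein-coding genes and single libraries were alternatives. The procedure was tested on simulated data. Transcript shares are shares of summed transcript TPM. Python 3.11.15, pandas 2.3.3, numpy 2.4.6 and scipy 1.17.1 were used.

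The members and gene lists were chosen with earlier results of these data known. All 10 members are named, with transcripts holding at least 10% of a gene in both libraries of either quantification, and from each pathway list the 3 highest and the lowest gene. Promoters were taken from RefSeq (GRCm38.p6) and 3′ UTRs from GENCODE; all 10 members matched both.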

Additional observations from a re-analysis of the deposited data

How the results depend on the processing

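Of 110 alternatives computed, 78 stayed within the spread between libraries, the counting interval or 1.5 times the count, and 32 moved. Genes at 10 TPM or more numbered 5 in the gene-level tables and 2 in the second quantification, where the mean level of all 10 genes was lower. The median of log2(TPM + 0.1) was 3.09, against 2.45 in the second quantification and 4.89 with TPM over protein-coding genes only. The median over the 10 genes was 2.67 without replicate 1 and 3.52 without replicate 2. Genes at 1 TPM or more were then 9 and 8, and at 10 TPM or more 5 and 5. Genes apart between libraries numbered 0, but 1 with library totals (Fosl2), 1 with no minimum count and 1 with a minimum of 50 (Batf3 in both cases). The sign of 2 log2 ratios changed, both in the second quantification and with counting intervals there that include 0: Jund had 0.18, against -0.09 there, and Fosb 0.28, against -0.23 there. The cause of these shifts was not tested. No paired analysis was possible because the series has 1 group. Depth limits Fosb, Maff and Batf3, with mean counts of 18.5, 52 and 56.5.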

Other observations

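Among related bZIP genes, 2 that were picked after their values were seen were also higher in replicate 1. Cebpb, encoding the macrophage factor C/EBPβ, had 25.3 and 13.4 TPM in replicates 1 and 2, and its log2 ratio was 0.88. Bach1, encoding a CNC repressor that pairs with small Maf proteins, had 38.1 and 23.5 TPM, and its log2 ratio was 0.61. Over all 15 CREB, C/EBP and CNC genes the median log2 ratio was 0.13. Of these 15, 10 were above 0, against 49.7% of all genes past the filter. Among other AP-1 and Maf family genes, the 8 past the filter had a median of 0.15, with 5 above 0. These are ratios of 1 library to 1 other.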
